A study of Drosophila melanogaster with 6 samples.

Results

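The genes described here are fly genes that carry only a CG number, the provisional name given to a predicted gene in the Drosophila genome annotation, and whose RNA gave a higher signal in the wing and hinge than in the body wall fragment of the wing imaginal disc. A probe set, the group of array probes that reports on 1 transcript, was a member if the platform annotation gave it 1 symbol made of CG and digits, if its lowest wing/hinge intensity was at least 100, and if that value was at least 1.5 times its highest body wall intensity. By this rule 17 of 4911 probe sets with a CG symbol were members, among 13966 probe sets for fly RNA, and they stood for 17 different genes. All 17 symbols are unchanged in the RefSeq gene table of assembly Release 6. The wing/hinge and body wall intensities themselves chose the members, so the differences between the fragments are given below as a description. A fit over all probe sets is quoted for its background share and its dependence on settings, and its calls are no support for the members. Each standard error (SE) of a log2 difference below comes from that fit. The fit draws the variance of a probe set towards that of all probe sets tested. Such an SE can be larger or smaller than the arrays of that probe set alone would give.

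The arrays came from wild-type Drosophila melanogaster. Wing discs of larvae in the last instar were divided by dissection into body wall and wing/hinge, and total RNA of either fragment was measured on 3 Affymetrix arrays, which the labels call biological replicates. No genotype beyond wild type, larval sex, exact age or number of discs per sample was used here. Where nothing says that samples came from separate dissections, their spread may be partly technical. Body wall 1 and body wall 2 carry aliases with the same number, so they may be repeats of 1 sample, and n = 3 for body wall would then be n = 2. The labels name the aim as a search for transcripts restricted in space within the disc.

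The wing disc is a larval epithelial sac from which the adult wing blade, the hinge that joins it to the thorax, and the dorsal body wall (the notum) are formed at metamorphosis. Position in the disc is set by patterning factors, such as the POU and homeobox genes of the wing pouch and the GATA factor gene pnr of the notum, which in turn control region-specific genes for adhesion, cuticle, transport and metabolism. Many of the region-specific genes have no name of their own because no mutant or biochemical study had described them when they were annotated. A family membership given below for a member gene is background predicted from protein sequence and was not measured here.

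Wing pouch and notum markers that met the rule did so in the fragment holding their region, while hinge markers met it in both. Of 15 tested wing pouch markers, 7 met the same intensity and ratio rule in wing/hinge (vg, nub, pdm2, dve, Dll, bi and vvl) and 0 in body wall. Of 11 notum markers, 4 met it in body wall (pnr, eyg, B-H1 and sr) and 0 in wing/hinge. The remaining markers of both lists did not meet it, and neither list was confined to 1 fragment. The summed intensity of the pouch markers was 3782.5 to 4647 on the body wall arrays and 9892 to 12672 on the wing/hinge arrays. For the notum markers it was 9881.5 to 10409.5 and 5649 to 6893. Of 13 hinge markers, 3 met the rule in wing/hinge (zfh2, Sox15 and Poxn) and 3 in body wall (drm, sob and Ance). The summed intensity of the 13 was 10103 to 13826 on the body wall arrays and 5571 to 6210 on the wing/hinge arrays. Their median log2 difference, wing/hinge minus body wall, was 0.20, opposite in direction to the sum, in which bright probe sets weigh most. For the pouch and notum markers the medians were 0.60 and -1.43, in the same direction as their sums. Markers of adult muscle precursors, cells under the notum, had a summed intensity of 2358 to 2662 over 6 genes on the body wall arrays and of 326 to 540 on the wing/hinge arrays, and 5 of the 6 met the rule in body wall. For 6 haemocyte markers the sums were 1714 to 1867 in body wall and 405 to 577 in wing/hinge, and Col4a1 and vkg met the rule in body wall. For 5 fat body markers they were 1007 to 1338 and 386.5 to 974, and for the peripodial marker tested 223 to 275 and 137 to 161, with none meeting the rule. For 5 neuron and glia markers the sums were 241 to 377 in body wall and 408 to 472 in wing/hinge, and none met the rule. For 7 tracheal markers they were 8130 to 9186 and 6012 to 7031, with a median log2 difference, wing/hinge minus body wall, of -0.17. Of these, Gasp and vvl met the rule in wing/hinge, but vvl is also among the wing pouch markers above. The part of these other cell types in the values below was not tested. As in any bulk sample, fewer cells of a type and less RNA per cell cannot be told apart.

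As a group, the members had moderate ratios, and 2 stood well above the rest. The median over members was 109, 109 and 119 on body wall arrays 1, 2 and 3, and 339, 265 and 314 on wing/hinge arrays 1, 2 and 3. The ratio of the lowest wing/hinge to the highest body wall value ran from 1.54 to 8.59 with a median of 1.87. It was at least 2 for 7 members and at least 3 for 2 members, CG13737 and CG9008. The log2 difference between the fragment means, wing/hinge minus body wall, ran from 0.80 to 3.10 over 16 members, and CG13737 has only a bound because its body wall values lay under the floor given next. The median over the 17, with CG13737 at its bound, was 1.72, against -0.03 over the 11698 probe sets tested. For the log2 scale a floor of 20.4, the 20th percentile over the 6 arrays together, replaced any lower value. Testing needed values over that floor on 3 or more arrays, which all 17 members had. Intensities of different probe sets are not compared as RNA amounts, since probes differ in brightness.

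**Figure D1:**
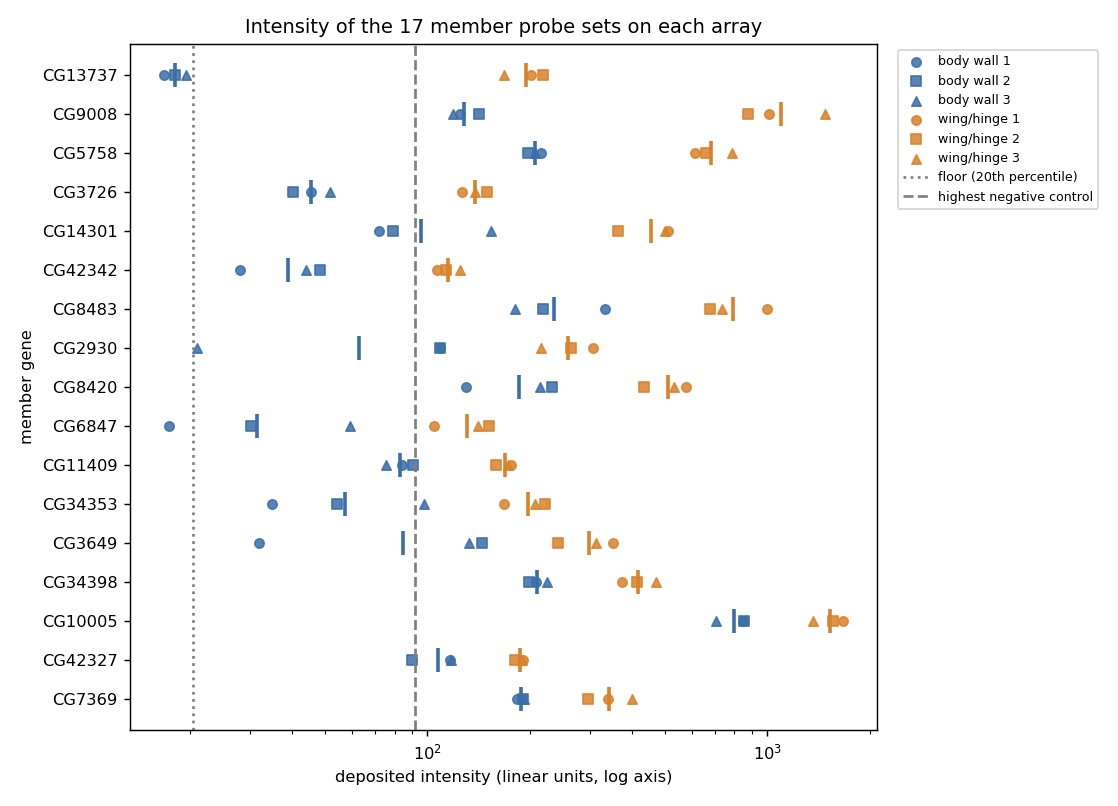
Deposited intensity (linear units on a log axis) of each of the 17 member probe sets, in order of the ratio of lowest wing/hinge to highest body wall value; each point is 1 array, vertical ticks are the geometric means of the 3 arrays of a fragment, and lines mark the floor of 20.4 and the highest value of the negative controls, 91.8. The wing/hinge points lie to the right of the body wall points in every row, as the rule requires, and CG13737 is the only row with all 3 body wall points under the floor.

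The 2 members with the widest separation were CG13737 and CG9008. CG13737, for which no role is given here, measured 16.8, 18.1 and 19.5 on the body wall arrays and 201.6, 218.3 and 167.6 on the wing/hinge arrays. All 3 body wall values lay under the floor, so only a bound is available there. With this floor the wing/hinge signal was at least 9.54-fold higher, and the bound depends on the floor chosen. CG9008, predicted to encode an enzyme of the aldose 1-epimerase family, which interconverts forms of sugars, measured 124.4, 141.4 and 118.9 in body wall and 1010.9, 875.7 and 1483.9 in wing/hinge. Its fragment means were 128 ± 11.7 and 1124 ± 319 (SD, n = 3 each), which is a log2 difference of 3.10 (SE 0.27). Its body wall values lay close together and above the control level, while wing/hinge 3 was the highest of the wing/hinge arrays.

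Another predicted enzyme gene, CG6847, of the lipase family, was dim. It measured 17.4, 30.3 and 59.2 in body wall and 104.7, 151.6 and 140.4 in wing/hinge. The body wall values differed 3.40-fold among themselves, with body wall 1 under the floor, and the log2 difference of 1.98 (SE 0.42) is reduced by raising that value to the floor.

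Genes predicted to encode membrane transporters gave 2 members, both with an uneven body wall group. CG2930, of the proton-coupled oligopeptide transporter family, measured 109, 109 and 20.9 in body wall and 306.5, 265.2 and 215.4 in wing/hinge. Body wall 3 lay well under the other body wall arrays, and the highest-to-lowest ratio within body wall, 5.22, was the largest among the members. CG3649, a predicted transporter of the major facilitator superfamily, measured 32, 144.6 and 132.7 in body wall and 351.8, 241.6 and 314.1 in wing/hinge. Here body wall 1 was the low array. The log2 differences were 2.05 (SE 0.65) and 1.81 (SE 0.59), the largest standard errors among the 17. Without its low array the fold of geometric means fell from 4.13 to 2.38 for CG2930 (body wall 3 left out) and from 3.52 to 2.16 for CG3649 (body wall 1 left out).

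Predicted secreted or cell surface proteins gave 3 members. CG14301, with a predicted chitin-binding domain of the kind found in cuticle-associated proteins, measured 72.2, 78.9 and 153.4 in body wall and 511.8, 364.8 and 499.7 in wing/hinge. Its means were 102 ± 45.1 and 459 ± 81.6 (SD, n = 3 each), which is a log2 difference of 2.25 (SE 0.35), with body wall 3 above the other body wall arrays. CG8483, of the CAP superfamily of secreted cysteine-rich proteins, measured 332.7, 218.6 and 180.8 in body wall and 997.6, 677.2 and 737.9 in wing/hinge, with replicate 1 the highest in each fragment. CG34353, of the immunoglobulin superfamily, ran from 34.9 to 97.7 in body wall and from 167.5 to 222.3 in wing/hinge (log2 difference 1.79, SE 0.40). The body wall spread of CG34353 was 2.80-fold and its wing/hinge spread 1.33-fold.

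Predicted regulators of signalling or transcription gave 2 members. CG3726, with a BTB domain, a protein interaction domain common in fly transcription factors, measured 45.4, 40.3 and 51.5 in body wall and 126.6, 149.5 and 138.3 in wing/hinge (log2 difference 1.60, SE 0.22). CG7369, a predicted Ras-type guanine nucleotide exchange factor, measured 183, 191.2 and 192.3 in body wall and 339.2, 296 and 401.2 in wing/hinge (log2 difference 0.86, SE 0.22). The body wall values of CG7369 differed by 1.05-fold, the least of any member, and its ratio of 1.54 was the smallest among the 17.

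The other 7 members are given without a role. CG5758 measured 215.7, 197.1 and 207.3 in body wall and 613.9, 658.9 and 784.9 in wing/hinge, means of 207 ± 9.31 and 686 ± 88.6 (SD, n = 3 each) with a log2 difference of 1.72 (SE 0.22). CG42342 was dimmer, at 28, 48.2 and 43.9 in body wall and 107, 113.5 and 124.7 in wing/hinge. CG8420 measured 129.7, 232.7 and 213.7 in body wall and 574.8, 434.9 and 530.5 in wing/hinge. For CG8420 body wall 1 was the low array, as for CG3649 and CG6847, while CG5758 showed no such array.

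CG10005 had the brightest probe set of the members and a small difference. It measured 847.7, 853.2 and 707.5 in body wall and 1667.4, 1566.5 and 1363.9 in wing/hinge (log2 difference 0.93, SE 0.22). Replicate 3 was the lowest in both fragments. CG42327 measured 116.8, 89.8 and 117 in body wall and 190.4, 180.6 and 189.4 in wing/hinge, the narrowest wing/hinge group, at 1.05-fold. Its probe set has the suffix s, by which Affymetrix marks sets whose probes match more than 1 transcript, so its signal may be shared. CG11409 ran from 75.6 to 90.8 and from 158.6 to 175.6, and CG34398 from 199.1 to 225 and from 373.8 to 469.6, in body wall and wing/hinge.

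The threshold of the rule falls inside a continuous range of ratios. Just inside it were CG7369 at 1.54, CG42327 at 1.54 and CG10005 at 1.60. Just outside were CG3880 at 1.48, with 239.4, 299.3 and 239.5 in body wall and 494.8, 444 and 497.9 in wing/hinge, CG44002 at 1.48 and CG16972 at 1.46. In all, 3 members had a ratio under 1.6, and 6 CG probe sets that reached the minimum intensity had one from 1.4 up to 1.5. A further 33 CG probe sets met the ratio but not the minimum of 100. Of these the nearest was CG10311, at 12.8, 11 and 31.2 in body wall and 127.2, 121.3 and 95.9 in wing/hinge, followed by CG12540 with a lowest wing/hinge value of 76.9 and CG2865 with 73.7. The members nearest inside that minimum were CG6847 at 104.7, CG42342 at 107 and CG3726 at 126.6. The count of members moved accordingly, to 37 with the ratio set midway between 1 and 1.5, 7 with a ratio of 2, 29 with a minimum of 50 and 10 with a minimum of 200.

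**Figure D2:**
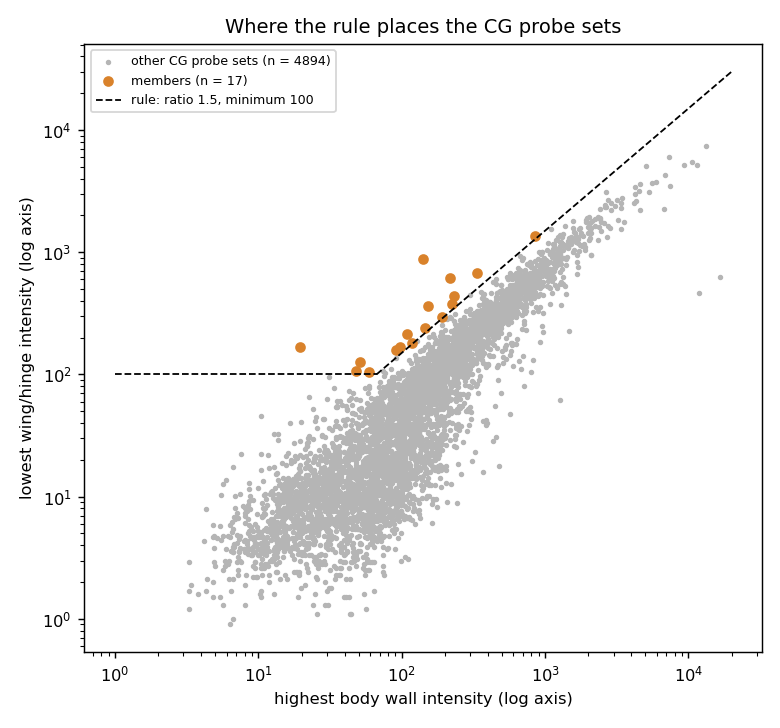
Highest body wall intensity against lowest wing/hinge intensity, both on log axes, for the 4911 probe sets with a CG symbol; the dashed line is the rule. The 17 members lie above the line, most of them close to it, with CG13737 and CG9008 farthest from it.

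Fewer of the CG probe sets than of the others reached the minimum intensity. Of the 4911 CG probe sets 1569 reached 100 on all wing/hinge arrays (31.9%), against 50.4% of the 7531 probe sets with another symbol. Members made up 0.346% of the CG probe sets and 1.08% of those that reached 100. The same rule was met by 61 probe sets with another symbol, 0.81% of all and 1.61% of those that reached 100, and by 0.616% of all fly probe sets. In the opposite direction 31 CG probe sets were higher in body wall, where 0.895% of all fly probe sets met the rule. Their median ratio was 2.96 and 22 of the 31 reached a ratio of 2, compared with 1.87 and 7 of 17 for the wing/hinge members. These differences in share and size were not tested.

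Set against the negative controls, the members differed in whether their body wall signal was above background. The 23 controls, which match RNA of bacteria, mouse or yeast, reached at most 91.8 over the 6 arrays, with 55.1 as their 95th percentile. All wing/hinge values of the members exceed that maximum because the rule asks for at least 100. In body wall 7 members exceeded it on all 3 arrays, 5 lay under it on all 3 (CG13737, CG3726, CG42342, CG6847 and CG11409), and 5 lay on both sides. For the dim members the size of the difference therefore depends on a body wall value close to background, whereas for CG9008, CG5758, CG8483, CG8420, CG34398, CG10005 and CG7369 both fragments were measured above the controls.

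The spread between arrays was wider in body wall for 11 of the 17 members (64.7%), against 54.8% of the 1569 CG probe sets that reached 100 in wing/hinge. The highest body wall value was more than 2 times the lowest for 5 members (CG2930, CG3649, CG6847, CG34353 and CG14301) and the highest wing/hinge value for 0, the wing/hinge maximum being 1.69-fold for CG9008. The median SD of the log2 values was 0.22 in body wall and 0.21 in wing/hinge, against 0.27 and 0.26 over the 1569 CG probe sets that reached 100. The rule favours probe sets with even values, so nothing about the genes is read from this. Body wall 1 was the lowest body wall array for 8 members and body wall 3 the highest for 8, and wing/hinge 1 was the highest wing/hinge array for 8. These last counts were not made over other probe sets, so nothing is read from them.

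The fit across all probe sets, by limma with Benjamini-Hochberg adjustment, gave 38 probe sets higher in wing/hinge at an adjusted p under 0.05, 0.325% of the 11698 tested. Among them were 5 members, a count that was 2 to 3 with any 1 array left out and 2 with body wall 1 and 2 averaged. The members were chosen on the same contrast, so nothing is read from these counts. The 3 wing/hinge values lay above all 3 body wall values for 6.53% of probe sets tested, and for all members because the rule requires it.

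The arrays also differed in their range, and some member differences were of unequal size in the 2 sets this gives. Body wall 1, wing/hinge 1 and wing/hinge 2 had maxima of 24976 or more and an actin 3' to 5' control ratio of 1.92 to 2.98. The other 3 arrays had maxima of 14881 or less and ratios of 1.12 to 1.28. The log2 difference was larger on the wide-range arrays for 8 members and on the narrow-range arrays for 9, with CG13737 counted at its bound, and had medians of 1.60 and 1.51. For CG3649 it was 3.19 on the wide-range and 1.18 on the narrow-range arrays, for CG34353 2.47 and 1.51, and for CG6847 2.63 and 1.73. CG2930 went the other way, with 1.39 and 2.17. CG9008 gave 2.92 and 3.52. The values of CG13737 are bounds in both sets and are not compared, although its point is drawn at the floor. Each set holds a fragment on 1 array alone, so these values carry no test, and the rule fixes their direction.

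**Figure D3:**
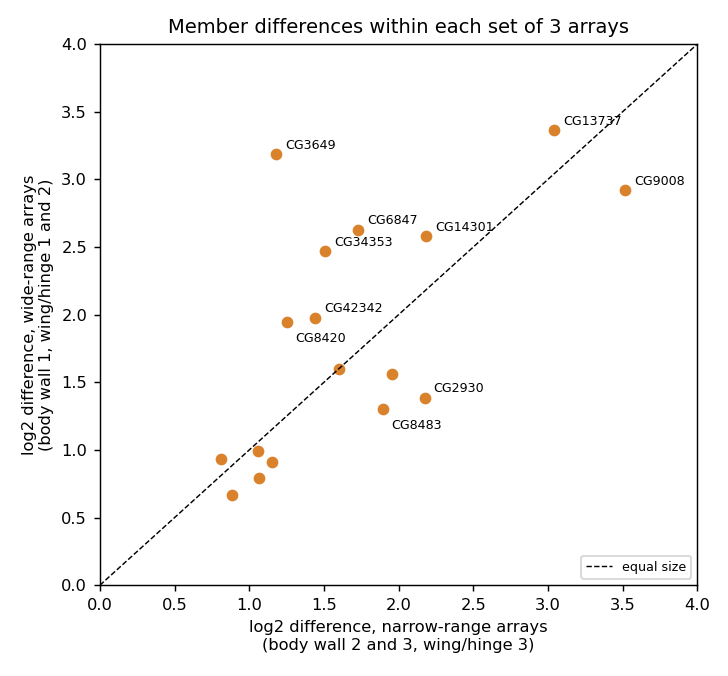
Log2 difference, wing/hinge minus body wall, of the 17 members on the 3 narrow-range arrays (horizontal axis) against the 3 wide-range arrays (vertical axis); each point is a member and the dashed line marks equal size. CG3649, at 1.18 and 3.19, lies farthest from the line, CG13737 is drawn with its body wall values at the floor, and 8 members lie above it and 9 below.

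Of the 17 genes 11 were represented by the member probe set alone, and 6 had 14 other probe sets, none of which met the rule. The probe set nearest to meeting it belonged to CG7369. Its other probe set measured 576.2, 668.2 and 611.2 in body wall and 952.6, 1040 and 937.7 in wing/hinge, a log2 difference of 0.66 (SE 0.21) beside 0.86, with groups that did not overlap and a ratio of 1.40. The body wall values were close together at both CG7369 probe sets, while the wing/hinge values of the member differed 1.36-fold.

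For the other 5 genes the groups overlapped at each of the 13 further probe sets. The second probe set of CG2930 measured 147.8, 77.4 and 128.4 in body wall and 94.3, 80.2 and 87.4 in wing/hinge, a log2 difference of -0.38 (SE 0.30) beside 2.05 at the member. The 6 other probe sets of CG34353 gave from -0.71 to 0.21 beside 1.79. A further probe set of CG34398 measured 16.6, 102.5 and 20.8 in body wall and 106.8, 98.1 and 166.4 in wing/hinge, a log2 difference of 1.77 (SE 0.65), which was larger than at the member but with overlapping values, since body wall 2 lay above wing/hinge 2. For CG42342 the brightest of the other probe sets gave 1.26 (SE 0.77), with 193.9, 25.5 and 174.3 in body wall and 172.8, 252.2 and 269 in wing/hinge. The other probe set of CG42327 gave 0.21 (SE 0.44). Over the 14 other probe sets 8 differences were positive and 5 negative, the median was 0.18, and 4 reached 100 on all wing/hinge arrays.

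Some members carry older names from earlier gene models. The RefSeq table lists former CG numbers for 5 of the 17 members, namely 7 for CG34353, 5 for CG42342, 3 for CG42327 and 2 each for CG2930 and CG34398. Each of those 5 genes had more than 1 probe set, and of the 12 members without a former number only CG7369 had more than 1. Whether the probe sets of such a gene report on the same transcript was not tested. Among 21 genes with another symbol, several probe sets and at least 1 of them meeting the rule, 4 met it at 2 or more, compared with 0 of the 6 member genes.

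**Figure D4:**
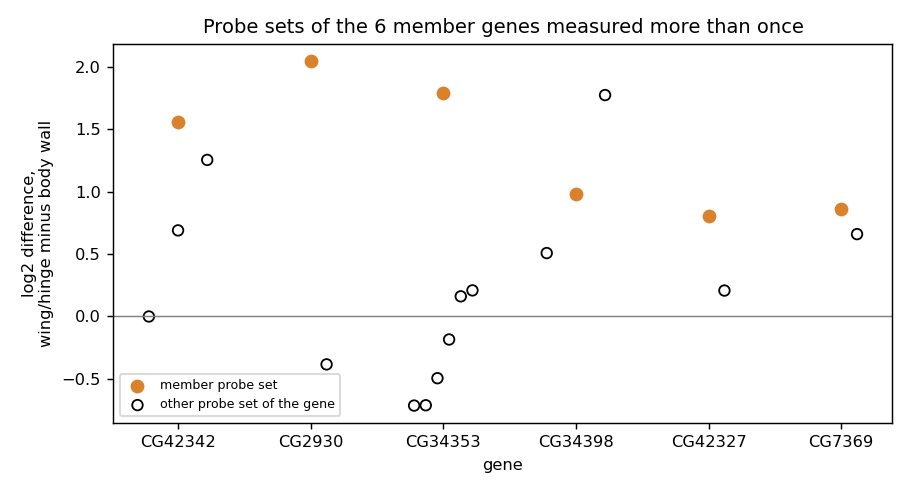
Log2 difference, wing/hinge minus body wall, at each probe set of the 6 member genes measured more than once; filled points are members and open points other probe sets of the same gene. The open points lie below the filled point for every gene except CG34398, where 1 of 2 lies above it at 1.77.

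The genes next to the members in the annotation mostly lacked the members' difference. No member lay next to another member. Taking the protein-coding gene on each side, 29 of 34 neighbours had a probe set of their own symbol, 37 probe sets in all. Their log2 differences ran from -1.81 to 1.38 with a median of -0.10, and 2 were at least 1 and 3 at most -1. A neighbour that met the intensity and ratio rule in wing/hinge was found for 1 of 17 members (5.88%), against 1.12% of the 10351 genes with a measured neighbour and 8.77% of the 57 other genes that met the rule. None of the members had a neighbour that met it in body wall, against 1.67% of all genes. A count of 1 does not set the members apart from other genes.

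That neighbour was Rgl, which lies beside CG13737 and is named for its likeness to exchange factors of the small GTPase Ral. Rgl measured 109.2, 104.4 and 89.4 in body wall and 192.6, 248 and 373.3 in wing/hinge, a log2 difference of 1.38 (SE 0.30). Its groups did not overlap, and its wing/hinge values were less even than those of CG13737. The gene on the other side of CG13737, dysc, gave 0.23 and -0.63 at 2 probe sets with overlapping groups. CG2930 lies beside yin, another gene of the oligopeptide transporter family. For yin the values were 13.5, 112.7 and 166.3 in body wall and 117.2, 145.9 and 184.4 in wing/hinge (log2 difference 1.01, SE 0.75), and the groups overlapped. The gene before CG3649, CG9826, was dim on all arrays, between 10.8 and 44.6, and gave -0.59 (SE 0.34).

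**Figure D5:**
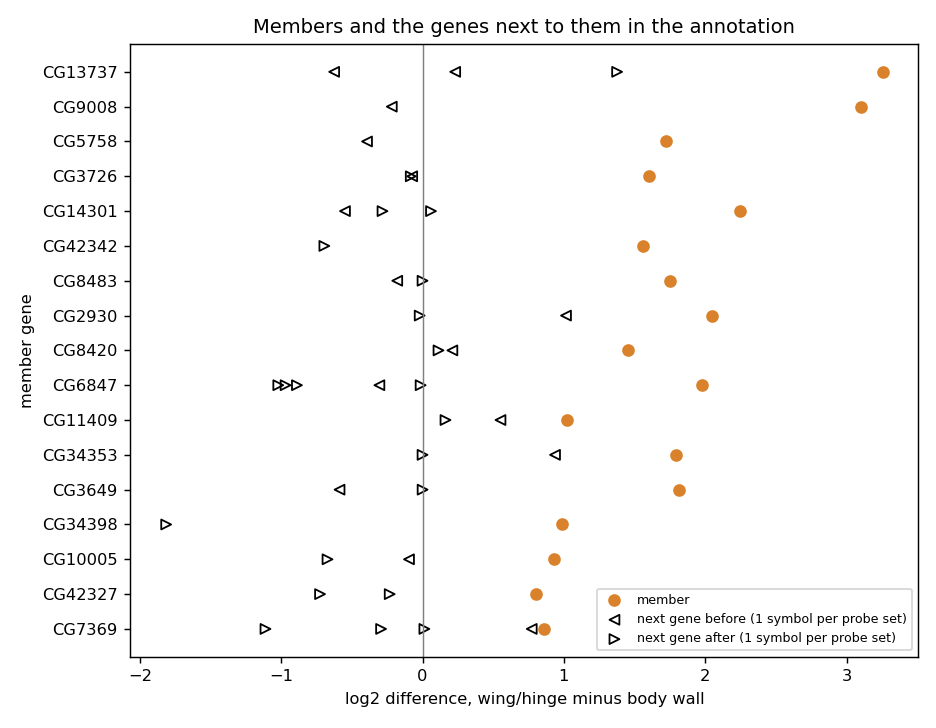
Log2 difference, wing/hinge minus body wall, of each member (filled) and of the probe sets of the genes just before and after it in RefSeq gene order (open triangles). Most triangles lie between -1 and 1, and Rgl, after CG13737 at 1.38, is the neighbour with the highest value.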

How the data were processed

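RNA of 3 body wall and 3 wing/hinge samples was hybridised to Affymetrix arrays, with targets made from about 8 ug of total RNA, per the labels. The deposited table holds 1 intensity for each probe set and array, not log transformed. Their 2% trimmed mean was 300.0 to 300.1 on every array, so they were taken as already scaled and used as deposited. How probes were summarised and scaled is not stated in the labels. Groups and replicate numbers came from the sample titles.

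Member probe sets, lists and tests were chosen with earlier results of these data known. The rule was applied to the intensities as deposited. Of 13966 fly probe sets, 12442 had 1 gene symbol, and the others (327 with several, 1197 with none) could not be members. All members are named, and values on every array are given for the 10 with the largest ratio, the 6 brightest in wing/hinge and the 3 nearest the threshold. For the fit, values under 20.4 were raised to it, 44 control probe sets were left out, and log2 values were tested with limma 3.58.1 in R 4.3.3 (lmFit and eBayes, two-sided, no block, Benjamini-Hochberg, threshold 0.05). The fit was tested on simulated data. Where a marker gene had several probe sets, the brightest on average was used. Gene order came from the RefSeq table of Release 6. The files name no build, so no coordinates are given. Protein and promoter features, planned at the outset, were not analysed here. Precision is limited by the 3 arrays per fragment.

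The labels give body wall 1 and 2 an alias with the same number. Their log2 values differed with an SD of 0.81, where other pairs of 1 fragment gave 0.74 to 0.87, and both were counted. This does not settle whether they are repeats of 1 sample.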

Additional observations from a re-analysis of the deposited data

How the results depend on the processing

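The member count was 37 and 7 with the ratio set midway between 1 and 1.5 and at 2, and 29 and 10 with minima of 50 and 200. With any 1 array left out it was 24 to 33, because the rule then asks less, and all 17 members stayed. It was 21 after quantile normalization, 22 with arrays scaled to the same median and 20 with body wall 1 and 2 averaged, with 17, 16 and 17 of the members kept (CG7369 left under scaling to the same median). Scaling to the same median raises every difference by 0.10 on the log2 scale. Calls by limma over all probe sets, 107, were 161 with a trended and robust variance, 52 with the block by range, 49 with body wall 1 and 2 averaged and 34 to 47 with 1 array left out. Member calls, 5, were 3 with the floor halved, 8 with it doubled and 7 with a trended and robust variance. They were 2 with the block by range, 2 with body wall 1 and 2 averaged and 2 to 3 with 1 array left out. Which members were called also changed. Of the 7 with a trended and robust variance, 4 were among the main 5, as were 4 of the 5 called without the filter. With the replicate block limma called 10 probe sets and 0 members, while all 17 members had an unadjusted p under 0.05, as had 1022 probe sets. The choice of members on the same contrast makes such counts no support for them. Same-numbered arrays deviated with correlations of 0.06, -0.16 and 0.19, so the numbers were not taken as pairs, and body wall 1 and 2 each correlated best with another number. With the floor halved, the body wall values of CG13737 lay above it, and its log2 difference was 3.43 rather than a bound. With the floor doubled its bound was 2.25. Across 15 alternatives of the fit, the log2 differences of the 17 members gave 255 values. Of these, 249 moved by less than the spread between replicates, 6 by more and 0 changed sign. Leaving out 1 of 3 arrays cannot move a difference by more than that spread, so those settings could only count as unmoved. Dropping the filter, the trended and robust variance and the replicate block leave the difference itself unchanged. On the deposited values the rule also fixes the sign. The values lay between 0.61 and 1.22 times the reported difference. Because of these limits, the counts are no support for the members. Members under 91.8 in body wall are limited by background.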
